A study of Homo sapiens with 6 samples.

Results

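A set of 36 genes that p53 is known to switch on was followed in cells labelled PANC1, a human pancreatic carcinoma line, with and without the nucleoside analogue gemcitabine. The genes were given as a list of names, among them the p53 inhibitor gene MDM2, the cytokine gene GDF15 and the damage recognition gene DDB2. The rule itself uses no measured value, but the list was drawn up with earlier results of these data known. All 36 of the 36 names were found among the 20461 protein-coding genes of the expression table. RNA-seq was done on 2 vehicle libraries (0.1% DMSO) and 2 libraries from cells given 50 nM gemcitabine, both for 48 h, and DNaseI-seq on 1 library of each condition. The study describes its RNA replicates as biological, and all libraries came from the same line without any engineered allele or second agent.

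p53 is a transcription factor that is held at a low level in resting cells because MDM2 marks it for breakdown. When DNA is damaged or replication stalls, p53 escapes MDM2, binds a DNA element made of a pair of decamers and raises the transcription of genes for cell cycle arrest, DNA repair, metabolism, cell death and its own inhibition. Most of these genes also respond to other factors.

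The label was checked first. PANC1 is known to lack CDKN2A through a homozygous deletion. CDKN2A, which codes for p16 and the MDM2 antagonist p14ARF, was nevertheless abundant, at 6219 and 6052 fragments with vehicle and 5497 and 5106 with gemcitabine. DNaseI peaks covered a CDKN2A start in both lists, at chr9:21994087-21995670 (vehicle) and chr9:21994097-21995719 (gemcitabine) of hg19. These values go against the labelled line at that gene in every library, so the libraries are called here by their labels only.

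The epithelial markers KRT7, KRT8 and KRT18 and the mesenchymal VIM were all expressed, and KRT19 was low, at 45 and 45 fragments in vehicle and 94 and 88 in gemcitabine libraries. Of 12 markers of leukocytes, endothelium, fibroblasts, acinar cells, hepatocytes and islets, 11 were in the table. CD3E, PRSS1, ALB and INS were at 0 in every library, and CDH5, COL1A2 and CPA1 had at most 3 fragments in any. The fibroblast gene LUM had 67 and 71 fragments in vehicle and 116 and 102 in gemcitabine libraries. DCN, also of fibroblasts, had 32 and 39 against 24 and 32, and PTPRC 4 and 2 against 9 and 5. The leukocyte gene CD68 had 133 and 154 against 238 and 269. The summed level was 15.6 and 17.3 CPM (fragments scaled to the library's total on genes) in vehicle against 29.6 and 31.0 in gemcitabine libraries, most of it CD68. The part of this shift in the results below was not tested. In bulk RNA, fewer cells of a type and less RNA per cell cannot be told apart. The libraries held 15153593 and 15766237 fragments on genes for vehicle and 13194533 and 13275457 for gemcitabine.

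Sequences that match the p53 element were looked for within 5 kb of an annotated start. A match needed both fixed cores of the element (4 bases in each decamer), a spacer of at most 1 base and at most 1 mismatch outside the cores, on either strand. Such a match was found for 6 of the 36 genes (16.7%), against 506 of 18838 genes with a start (2.69%). Several of these genes are known as p53 targets because of such an element, so the difference is a description. The 6 matches are shown because they mark the genes where a sequence of this form can be read near a start. They are given in the hg19 sequence, 5′ to 3′ on the strand of the gene, with the cores in capitals. Binding of p53 was not measured.
DDB2: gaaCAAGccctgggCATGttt
PLK2: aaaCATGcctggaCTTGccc
ZMAT3: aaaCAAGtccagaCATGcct
GADD45A: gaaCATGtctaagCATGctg
CCNG1: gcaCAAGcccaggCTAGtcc
PERP: aggCAAGctccagCTTGttc

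The DDB2 match lies in an exon at chr11:47236530-47236550 (+ strand), 15 bp after a start, and has no mismatch. The PLK2 match lies at chr5:57758101-57758120 (- strand), upstream of the gene, with its centre at -2144 bp, and also has no mismatch. The other 4 are intronic, in ZMAT3 (chr3:178787976-178787995, - strand), GADD45A (chr1:68152458-68152477, + strand), CCNG1 (chr5:162864932-162864951, + strand) and PERP (chr6:138425207-138425226, - strand). The ZMAT3 match has no mismatch, and those of GADD45A, CCNG1 and PERP have 1 each. These 6 genes did not share a response to gemcitabine, since GADD45A, DDB2, PLK2 and CCNG1 rose whereas ZMAT3 and PERP did not pass the test. With 2 mismatches allowed, 13 of the 36 genes (36.1%) and 14.0% of all genes had a match. GDF15, the gene of the list with the largest rise, had a match of this weaker kind only.
GDF15: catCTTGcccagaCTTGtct
It lies at chr19:18496118-18496137 (+ strand) in an intron, at -841 bp from the nearest start.

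Of the 36 genes, 35 had enough fragments to be tested, and SPATA18, a gene of mitochondrial quality control, had 0 fragments in each library (a count of 0 allows up to 3 fragments, or 0.190 to 0.227 CPM). A gene is said here to have risen or fallen when its adjusted p was under 0.05 (edgeR quasi-likelihood test, Benjamini-Hochberg over all genes), and is called when it also changed over 1.5-fold with a difference of at least 1 FPKM. Of the 35 genes, 22 rose (62.9%, against 18.5% of all genes tested) and 3 fell (8.57%, against 20.0%). The calls were 10 genes higher (28.6%, against a background of 5.69%) and 0 lower (background 4.43%), where 10.1% of all genes were called in either direction. At an unadjusted p under 0.05 the number of lower genes was 3, and DESeq2 called 0 lower and 11 higher. At its adjusted p alone, 20 genes rose and 2 fell by DESeq2, without SUSD6, TIGAR and CYFIP2. Of all genes, 12.2% rose and 15.4% fell by DESeq2. In limma on log2(FPKM + 1), 9 rose and 0 fell. Far fewer of all genes passed there in either direction, and 0.916% fell, against 20.0% by edgeR. With a filter at a mean of 0.1 FPKM, 17 rose and 1 (CYFIP2) fell in limma on log2(FPKM + 1), where 9.28% and 3.96% of all genes did. Why falls were lost in limma was not tested. Without vehicle replicate 1 and then without vehicle replicate 2, all 3 stayed below 0. They did not keep an adjusted p under 0.05 there, and some of the rises did not either. Fewer of all genes passed in these fits, which take their spread from the gemcitabine libraries alone. The log2 fold changes of the 3 that fell were -0.39 and -0.40 for AEN, -0.41 and -0.28 for ASCC3, and -0.32 and -0.36 for CYFIP2.

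Over the 35 genes the log2 fold changes had their median at 0.41, and 29 genes lay above 0, beside a median of 0.0068 for all 14854 genes tested. Scaling by library totals alone moved the median of all genes to 0.12 and that of these genes to 0.52, and moved the higher share of all calls from 56.2% (845 higher, 658 lower) to 73.6% (1164 higher, 417 lower). In CPM scaled further by the TMM factors of the edgeR fit, the libraries of the 2 conditions did not overlap for 28 of the 35 genes. But this was so for 69.7% of all genes tested, a share too near to be read as a result about these genes. Levels ranged widely, from a vehicle mean of 0.704 FPKM for PGF to 261.7 FPKM for PERP, with a median of 19.3 FPKM in vehicle and 28.1 FPKM in gemcitabine libraries.

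**Figure D1:**
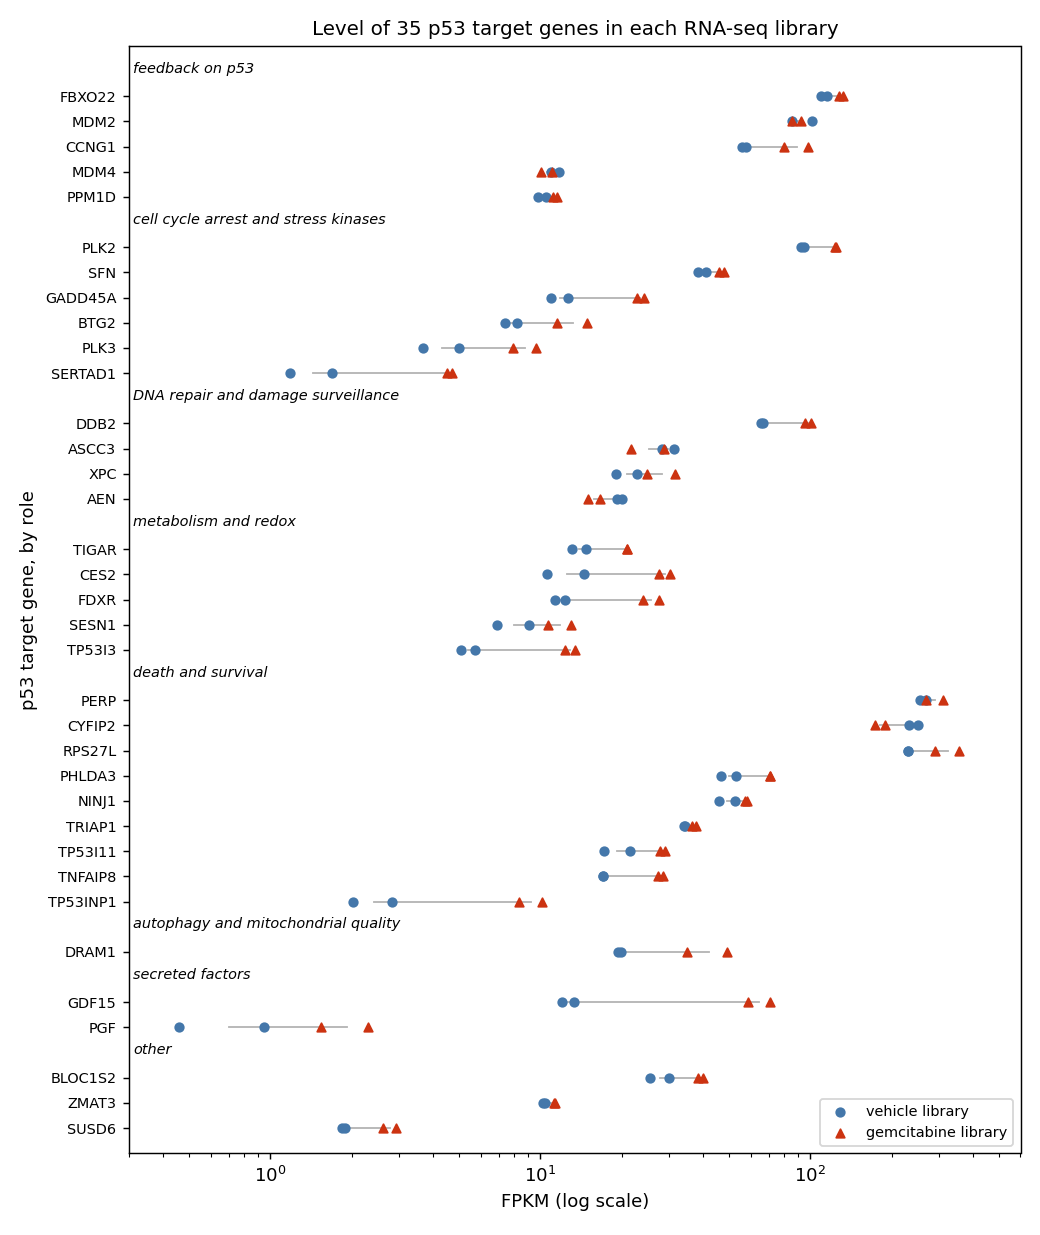
FPKM (log axis) of the 35 genes with any fragment in the 2 vehicle (circles) and 2 gemcitabine libraries (triangles), grouped by role, with a line between the means of the conditions. GDF15 and TP53INP1 show the widest gaps between the conditions, and PERP has the highest vehicle mean (261.7 FPKM). SPATA18, at 0 in every library, is not drawn.

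Of the 5 feedback genes, whose products limit p53, 1 rose and 4 did not pass the test. The 1 that rose is 20% of the group, near the 18.5% of all genes tested. MDM2, the ubiquitin ligase that degrades p53, had 901 and 998 fragments in vehicle and 923 and 811 in gemcitabine libraries. The conditions overlapped, and the log2 fold change was -0.02 (SE 0.078, adjusted p = 0.886). MDM2 shares exons with CPM on the opposite strand and the kit does not mark strand, so reads of these 2 genes cannot be told apart where they overlap. MDM4, the MDM2 relative that masks p53, had 668, 739, 694 and 491 fragments in the 2 vehicle and then the 2 gemcitabine libraries, with the lowest value in a gemcitabine library (log2 fold change -0.13, SE 0.117, adjusted p = 0.391). Without gemcitabine replicate 1 its log2 fold change was -0.39 (adjusted p = 0.000168 by edgeR), so 1 library decides the value. The phosphatase gene PPM1D (Wip1), which removes damage-induced phosphates from p53 and its kinases, had 445, 513, 460 and 461 fragments and a log2 fold change of 0.06 (SE 0.089). The conditions again overlapped. FBXO22, the substrate receptor of a ubiquitin ligase, also did not pass (0.06, SE 0.068), and it shares exons with NRG4. The feedback gene that rose was CCNG1, which codes for cyclin G1, from 411 and 425 to 499 and 543 fragments (log2 fold change 0.43, SE 0.090, adjusted p = 0.00164).

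Of the 6 genes of cell cycle arrest and stress kinases, 5 rose (83.3%, against 18.5% of all genes tested). Of those, 3 were called (50% of the group, against 5.69%). GADD45A, a stress gene whose product binds PCNA and CDK1, had 210 and 225 fragments in vehicle against 367 and 324 in gemcitabine libraries. Both gemcitabine libraries lay above both vehicle libraries, by 1.72-fold (log2 fold change 0.78, SE 0.108, adjusted p = 5.74e-05). SERTAD1, which binds CDK4, rose from 43 and 63 to 135 and 125 fragments, or 2.65-fold (1.41, SE 0.198, adjusted p = 6.87e-05). Its counts were low, and its log2 fold change ran from 1.20 to 1.68 as each library was left out. PLK3, a polo-like kinase of the stress response, rose from 112 and 120 to 241 and 236 fragments, or 2.22-fold (1.15, SE 0.129, adjusted p = 8.91e-06), with exons shared with DYNLT4 on the opposite strand. Its relative PLK2 rose less, from 1124 and 1195 to 1537 and 1475 fragments (0.49, SE 0.066, adjusted p = 4.64e-05). BTG2, an antiproliferative gene, stood at 303, 344, 396 and 472 fragments (0.54, SE 0.109, adjusted p = 0.00126). Both were under the 1.5-fold limit. SFN (14-3-3 sigma), which retains CDK1 in the cytoplasm, did not pass at 730, 737, 760 and 722 fragments (0.13, SE 0.076, adjusted p = 0.198).

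The 4 DNA repair and surveillance genes split evenly, with 2 risen (50%, against 18.5% of all genes tested) and 2 fallen (50%, against 20.0%). DDB2 and XPC, which recognise damage for nucleotide excision repair, both rose. DDB2 went from 2009 and 2099 to 2765 and 2460 fragments (log2 fold change 0.46, SE 0.070, adjusted p = 0.000127), and XPC from 886 and 891 to 1034 and 1118 (0.39, SE 0.075, adjusted p = 0.000904). ASCC3, a helicase of alkylation repair, and AEN, a nuclease of the apoptotic response, both fell. AEN went from 851 and 881 to 645 and 565 fragments (-0.40, SE 0.081, adjusted p = 0.00117), and ASCC3 from 2521 and 2901 to 1840 and 2072 (-0.35, SE 0.078, adjusted p = 0.00242). None of the 4 reached the fold limit.

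All 5 genes of metabolism and redox control rose (100%, against 18.5% of all genes tested), and FDXR and TP53I3 were called (40%, against 5.69%). FDXR, the mitochondrial ferredoxin reductase, had 267 and 284 fragments in vehicle against 536 and 544 in gemcitabine libraries. The libraries within each condition lay close together, and the rise was 2.12-fold (log2 fold change 1.08, SE 0.092, adjusted p = 7.77e-07). TP53I3 (PIG3), a quinone oxidoreductase, rose 2.20-fold from 79 and 71 to 164 and 141 fragments (1.14, SE 0.170, adjusted p = 0.000119), and it shares exons with FAM228B on the opposite strand. SESN1, a sestrin that restrains mTORC1, rose from 274 and 300 to 420 and 375 fragments (0.58, SE 0.0997, adjusted p = 0.000353), and at 149.9% of its vehicle level it stood just under the fold limit. SESN1 was called under 7 of 13 alternative settings. TIGAR, a phosphatase that slows glycolysis, stood at 237, 254, 304 and 300 fragments (0.41, SE 0.104, adjusted p = 0.00592), but did not pass in DESeq2 (adjusted p = 0.0620). CES2, a carboxylesterase, rose from 549 and 544 to 691 and 669 fragments (0.43, SE 0.080, adjusted p = 0.000722). Its FPKM moved further, from 10.6 and 14.5 to 27.6 and 30.1, and it was called in limma on log2(FPKM + 0.1) and, with a filter at a mean of 0.1 FPKM, on log2(FPKM + 1).

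Of the 9 genes of death and survival, 4 rose (44.4%, against 18.5% of all genes tested), 1 fell (11.1%, against 20.0%) and 4 did not pass. TP53INP1, a nuclear stress protein with roles in cell death and autophagy, had 183 and 225 fragments in vehicle against 715 and 649 in gemcitabine libraries. This was the second largest fold change of the 35 genes, 3.62-fold (log2 fold change 1.86, SE 0.102, adjusted p = 2.89e-08). TNFAIP8, an inhibitor of apoptosis, rose from 308 and 356 to 434 and 499 fragments, or 1.52-fold (0.61, SE 0.104, adjusted p = 0.000363). It stood just over the fold limit and was no longer called without vehicle replicate 1 (0.55) or without gemcitabine replicate 2 (0.49). PHLDA3, which competes with AKT for membrane lipids, rose from 1028 and 974 to 1121 and 1165 fragments (0.30, SE 0.075, adjusted p = 0.00508). RPS27L, a ribosomal protein paralogue, rose from 1802 and 1969 to 2464 and 2125 (0.40, SE 0.074, adjusted p = 0.000715).

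CYFIP2, a subunit of the WAVE actin-regulatory complex, was the member of this group that fell, from 7152.8 and 7296.2 to 4709.4 and 5769.8 fragments (log2 fold change -0.35, SE 0.088, adjusted p = 0.00582), but it did not pass in DESeq2 (adjusted p = 0.0915). Its counts are not whole, as Cuffdiff divides reads that map to several places, and are uncertain to that extent. PERP, a desmosomal membrane protein and the highest of the 36 genes in vehicle FPKM, had 7794, 7994, 6995 and 7926 fragments (0.03, SE 0.075). TRIAP1, an inhibitor of apoptosome formation, had 539, 576, 529 and 508 (0.0096, SE 0.082). In both genes the conditions overlapped. NINJ1, which mediates plasma membrane rupture, and TP53I11 also did not pass, at log2 fold changes of 0.10 (SE 0.075) and 0.12 (SE 0.073), and TP53I11 shares exons with TSPAN18.

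The genes of secreted factors both rose. GDF15, a stress cytokine of the TGF-beta superfamily that is widely used as a p53 readout, lies at chr19:18485541-18499986 (+ strand). It had 214 and 208 fragments in vehicle against 924 and 836 in gemcitabine libraries, and its FPKM went from 13.4 and 12.0 to 70.7 and 58.6. The rise of 4.51-fold was the largest of the 35 genes (log2 fold change 2.17, SE 0.094, adjusted p = 3.36e-09) and stayed between 2.11 and 2.24 as each library was left out. PGF, a placental growth factor of the VEGF family, had 11 and 13 fragments against 35 and 45, a rise of 3.58-fold with a wide error (1.84, SE 0.354, adjusted p = 0.000888). The PGF call was lost without vehicle replicate 1, without gemcitabine replicate 2 and in all 3 limma settings on FPKM. The autophagy gene DRAM1, a lysosomal membrane protein, rose 1.82-fold from 897 and 937 to 1382 and 1695 fragments (0.86, SE 0.092, adjusted p = 5.72e-06). Its gemcitabine libraries differed more from each other than its vehicle libraries did.

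The remaining 3 genes lie outside these roles. BLOC1S2, a subunit of a lysosomal trafficking complex, rose from 459 and 421 to 616 and 578 fragments (log2 fold change 0.55, SE 0.091, adjusted p = 0.000260). SUSD6 rose from 160 and 166 to 189 and 193 (0.34, SE 0.127, adjusted p = 0.0450), just inside the threshold, and did not pass in DESeq2 (adjusted p = 0.245), with no filter on low counts (0.0520) or with the replicate block (0.0551). ZMAT3, an RNA-binding zinc finger protein whose match to the p53 element is shown above, did not pass at 1211, 1449, 1061 and 1219 fragments (-0.11, SE 0.087, adjusted p = 0.360).

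**Figure D2:**
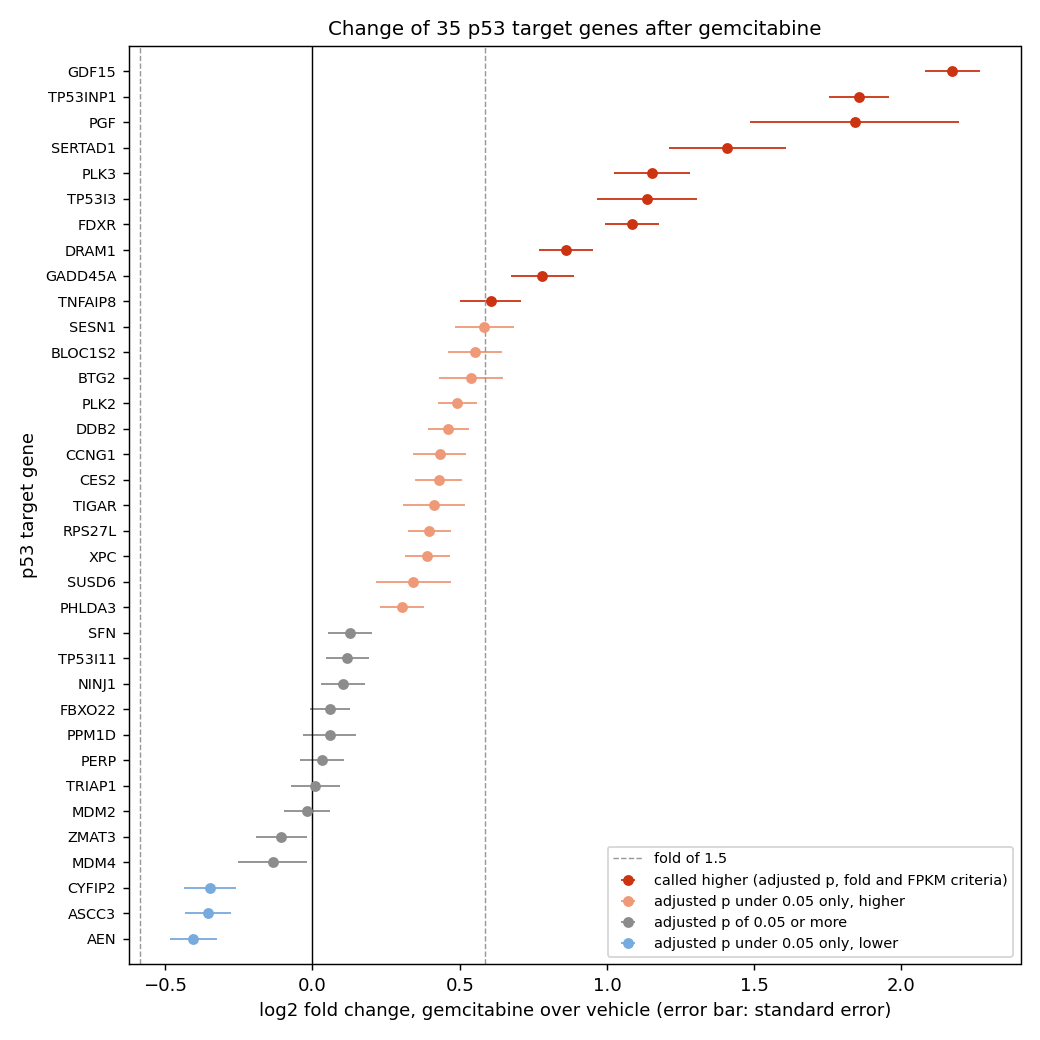
Fitted log2 fold change (gemcitabine over vehicle) of the 35 genes tested, with bars of 1 SE from 2 libraries a condition, coloured by the outcome of the test. GDF15 (2.17) and TP53INP1 (1.86) stand farthest to the right, MDM2 (-0.02) lies at 0, and AEN (-0.40), ASCC3 (-0.35) and CYFIP2 (-0.35) are the 3 that fell.

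No gene of feedback, of repair or of the 3 outside these roles was among the 10 called. These groups are small and only 5.69% of all genes tested were called higher, so their lack of a call is a description only. Of the 10, 8 stayed called as each library was left out in turn, where the condition left with 1 library is assumed to vary like the other, and 6 (SERTAD1, GADD45A, FDXR, TP53I3, TP53INP1 and GDF15) stayed called under all 13 alternatives tried across genes.

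A further 51 known p53 targets were taken from a list written by hand, of which 50 were tested and TGFA had too few fragments (0, 0, 1 and 2). Of the 50, 12 were called higher (24%, against 5.69% of all genes) and 2 lower (4%, near the 4.43% of all genes). At the adjusted p alone, 26 rose (52%, against 18.5%) and 4 fell (8%, against 20.0%). Their median log2 fold change was 0.34. CDKN1A, which codes for the CDK inhibitor p21 and is the best known p53 target, rose 2.45-fold from 1932.8 and 2055.7 to 4580.5 and 4457.8 fragments (log2 fold change 1.29, SE 0.065, adjusted p = 1.57e-08). Its match to the p53 element is shown because it is the gene of reference for such sites. The match has 2 mismatches and lies at chr6:36644226-36644245 (+ strand). Its centre is at -2 bp from the annotated start nearest to it, the most upstream of the gene. Which start these cells use was not tested.
CDKN1A: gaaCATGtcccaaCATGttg
The next largest called rises were LIF (1.24), ORAI3 (1.07), SESN2 (0.88) and TLR3 (0.88). The 2 called lower were DDIT4, an mTORC1 inhibitor that is also induced by hypoxia, from 3815 and 3697 to 2070 and 2059 fragments (-0.75, adjusted p = 1.46e-06), and STEAP3, a ferrireductase (-0.70, adjusted p = 7.36e-06).

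Of 27 regulators of p53, 0 were called higher and 1 lower by edgeR, and DESeq2 gave the same counts. The 1 called lower is 3.70% of the list, near the 4.43% of all genes. At the adjusted p alone, 2 regulators rose (7.41%, against 18.5% of all genes) and 11 fell (40.7%, against 20.0%), and at an unadjusted p under 0.05, 4 were higher and 11 lower. The called gene was USP7, a deubiquitinase of MDM2 and p53, from 2606 and 2806 to 1589 and 1608 fragments (log2 fold change -0.64, SE 0.066, adjusted p = 3.93e-06). The median of the regulators was -0.09, and with library totals it turned to 0.02.

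**Figure D3:**
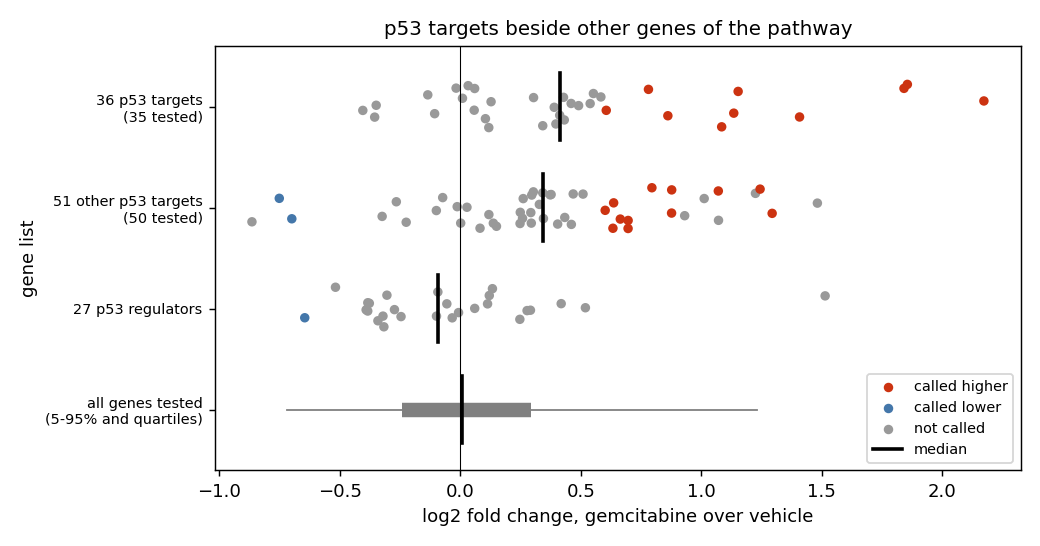
Log2 fold change (gemcitabine over vehicle) of each gene tested among the 35 targets described above, the 50 other p53 targets and the 27 regulators of p53, with the median of each list and the spread of all 14854 genes tested. The medians are 0.41, 0.34 and -0.09, beside 0.0068 for all genes.

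DNaseI-seq shows where chromatin is open to the enzyme, and the authors' lists hold 9606 vehicle and 10695 gemcitabine peaks. With 1 library a condition there is no test, and a gene in 1 list alone may have a weaker signal in the other that missed the calling limit. A peak lay within 5 kb of a start for 13 of the 36 genes in vehicle (36.1%, against 31.7% of all genes tested) and for 14 in gemcitabine (38.9%, against 36.6%). Both shares are near the background at this limit. With a score of at least 100, the shares were 16.7% against 8.99% of all genes tested in vehicle, on 6 genes, and 11.1% against 11.1% in gemcitabine, on 4. Peaks in both lists were found at 10 genes, and at 9 of them (MDM2, MDM4, PLK3, SERTAD1, DDB2, FDXR, SESN1, TP53I3 and GDF15) the peaks overlapped, while SFN had a peak at a different place in each list.

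The peak at FDXR had a score of 187.78 in vehicle and 109.17 in gemcitabine, where the score is a rescaled log10 of the peak caller's p-value, higher for stronger peaks, and depends on the depth of its library. At PLK3 the scores were 110.98 and 149.34, and at MDM4, whose expression did not pass the test, 143.92 and 73.10. The order of the scores between conditions thus differed from gene to gene. The GDF15 peaks, at chr19:18490932-18491496 in vehicle and chr19:18490735-18491645 in gemcitabine, were centred at -1766 and -1790 bp from the start nearest to them and did not hold the match shown above. These peaks lie inside the annotated gene, and the distance of the match was taken from another of its starts.

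Peaks in vehicle alone were found at RPS27L, TRIAP1 and XPC, with scores of 59.23, 55.11 and 69.20. Peaks in gemcitabine alone were found at GADD45A (52.20), NINJ1 (65.44), PPM1D (54.45) and TNFAIP8, which had peaks at 2 of its starts (68.86 and 75.67). Most of these scores lie not far above the lowest score of 50 in the lists. Of the 10 called genes, 7 had a peak in either list, and TP53INP1, DRAM1 and PGF had none within 5 kb. Among all the targets, called or not, 17 had a peak in either list and 19 had none. The share of all genes with a peak in either list was not computed, so the 7 called genes are a description only. Of the element matches printed above, only that of DDB2 lay inside a peak, which covered it in both lists (chr11:47235604-47238484 with a score of 118.45 in vehicle, and chr11:47235645-47238423 with 117.38 in gemcitabine). Over all peaks, the 300 bases around the centre held a match with at most 1 mismatch in 6 vehicle (0.0625%) and 8 gemcitabine peaks (0.0748%).

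**Figure D4:**
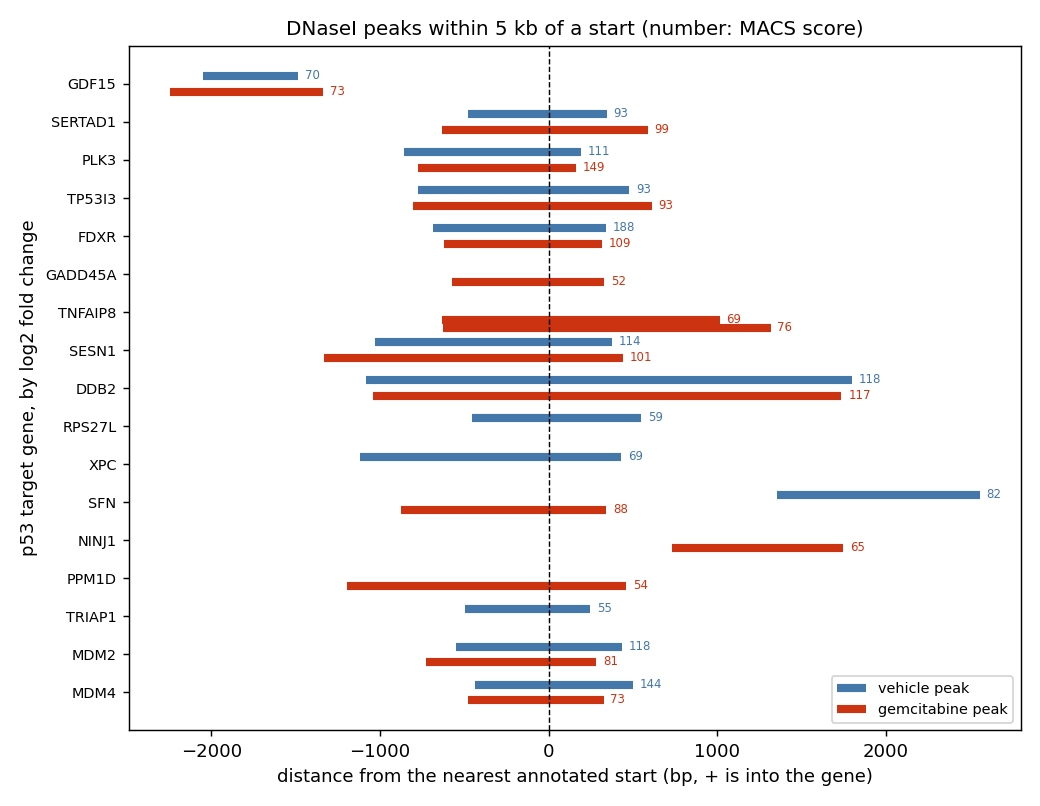
DNaseI peaks within 5 kb of an annotated start for the 17 genes of the list that have any, drawn by distance from the nearest start (bp, positive into the gene), with the score of each peak. The peaks of 9 genes overlap between the lists, and the 2 gemcitabine peaks of TNFAIP8 belong to 2 different starts. Those of GDF15 lie wholly before the start nearest to them, but inside the annotated gene.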

How the data were processed

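The authors grew the cells for 24 h before treatment. They aligned single-end reads to hg19 (TopHat2 2.0.8 and Cuffdiff 2.0.2 are named in the submitters' processing notes) and assigned them to the protein-coding part of Gencode 15, with 10 reads as the least for a gene. The deposited table holds estimated counts of fragments (86.8% of values whole) and FPKM by the authors; its 2 other value columns were not used. Cuffdiff marked 275 genes as failed in at least 1 library, MDM2 among them, and these were kept. The deposited DNaseI lists give each peak of MACS, called on 1 library a condition at a p-value of 1e-05, with a score.

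Counts were rounded, and the 14854 genes whose 4 libraries summed to 10 fragments or more entered edgeR 4.0.16 (TMM, quasi-likelihood, 2-sided, no covariate) in R 4.3.3, in place of Cuffdiff. Calls needed an adjusted p under 0.05, a fold over 1.5, a mean of at least 0.1 FPKM in 1 condition and a difference of at least 1 FPKM. Names were matched by ID for 19619 genes, and starts were taken from a later Gencode release on hg19 (18838 genes).

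All 36 targets are named, and of the other lists the 5 largest called rises and falls. Some results on a regulator are not reported here. The genes and lists were chosen with earlier results of these data known. Alternatives were DESeq2 1.42.0, other scaling and filters, limma 3.58.1 on log2(FPKM + 1) or log2(FPKM + 0.1), other limits on p and score, each library left out, and a replicate block. Which labelled replicate each library index of the table stands for is not known, and the numbers used here follow the index.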

Additional observations from a re-analysis of the deposited data

How the results depend on the processing

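With 2 libraries a condition, the p-values cover the spread between these libraries only. The study calls the replicates biological and does not say how many separate treatments they came from. With a library left out, the spread comes from the other condition alone, so those p-values depend on which condition it is. The gemcitabine libraries differed more from each other than the vehicle libraries did (chi-square per gene of 5.16 against 2.17). Of 455 log2 fold changes of the 35 targets recomputed under 13 alternatives, 415 kept direction and call, 11 lost and 16 gained the call, and 13 turned direction. The causes of these changes were not tested.

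The number of targets called higher (10) was 9 to 11 as each library was left out, 7 in limma on log2(FPKM + 1), 8 on log2(FPKM + 0.1), 14 with library totals and 22 with the adjusted p alone. Targets called lower stayed at 0 with each library left out and were 3 with the adjusted p alone. The other p53 targets called higher (12) were 9 to 12 with a library left out, 6 in limma on log2(FPKM + 1) and 26 with the adjusted p alone, and those called lower (2) were 0 in all 3 limma settings and 4 with the adjusted p alone. The regulators called (1) were 0 in the 3 limma settings, 1 to 2 with a library left out and 13 with the adjusted p alone. The median of the targets (0.41) was 0.39 to 0.43 with a library left out, 0.52 with library totals, 0.50 in limma on log2(FPKM + 1) with or without a filter and 0.54 on log2(FPKM + 0.1), where the median of all genes was also moved, to 0.12, 0.085 and 0.12. With a score of at least 100, 6 rather than 13 targets had a vehicle peak (16.7%, against 8.99% of genes tested) and 4 rather than 14 a gemcitabine peak (11.1%, against 11.1%).

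The genes that turned direction all lay near 0. With a library left out, MDM2 ranged from -0.099 to 0.060 (0.033 without vehicle replicate 2), MDM4 from -0.391 to 0.081, PPM1D from -3.2e-05 to 0.138, TRIAP1 from -0.0062 to 0.032, PERP from -0.074 to 0.133 and ZMAT3 from -0.224 to 0.0033. MDM2 was 0.094 with library totals. ZMAT3 was 0.0031 with library totals, 0.12 in limma on log2(FPKM + 1) with or without a filter and 0.13 on log2(FPKM + 0.1).

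PLK3 and DRAM1 lost the call in limma on log2(FPKM + 1) and log2(FPKM + 0.1), and BTG2, PLK2 and BLOC1S2 gained it with library totals. The log2 fold change of BTG2 also depended on the library left out. It was 0.67 without gemcitabine replicate 1 and 0.39 without gemcitabine replicate 2, on either side of the fold limit (0.585). A replicate block on the library index of the table again called 10 targets and changed no call of a target, while SUSD6 no longer passed the adjusted p (0.0551). Only 2 pairs can be made and libraries of the same index did not deviate together (correlation -0.052 over 10010 genes), so the index was not taken as a pairing of the samples.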

Other observations

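Because CDKN2A is known to be deleted in PANC1, its neighbours on chromosome 9 were looked at after its values had been seen. CDKN2B, the gene of the CDK inhibitor p15, had 427 and 490 fragments in vehicle against 968 and 854 in gemcitabine libraries (log2 fold change 1.10, SE 0.086, adjusted p = 3.91e-07 by edgeR). MTAP, a gene of methionine salvage, had 2845.7 and 3037 fragments against 1521.2 and 1717.2 (-0.75, SE 0.075, adjusted p = 3.40e-06). DNaseI peaks over the gene numbered 2 for MTAP and 1 for CDKN2B in the vehicle list and 0 for both in the gemcitabine list. CDKN2A had 1 vehicle and 2 gemcitabine peaks.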
